A study of Rattus norvegicus with 6 samples.

Results

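Intrathecal etanercept was compared with intrathecal vehicle in rats with the chronic post-ischaemia pain (CPIP) injury, across all genes of the lumbar dorsal root ganglia. The comparison uses 4 of the 6 bulk RNA-seq libraries of the series, CPIP+ETA 1 and 2 against CPIP+Veh 1 and 2, chosen by their group labels alone. The 2 Sham+Veh libraries entered the same fit, and their values are given beside some of the genes as an uninjured level. Where they are not given, a difference between etanercept and vehicle does not tell which of these groups departs from sham. Every animal was a male wild-type rat. In both CPIP groups a hind limb was ligated near the ankle for 3 h with an O-ring of 5.5 mm inner diameter under pentobarbital anaesthesia, and the sham rats had the anaesthesia without the ligature. Etanercept or vehicle was given intrathecally each day, starting 2 days after the injury, and the ganglia L4 to L6 of the injured side were taken after 7 days. All 3 groups received intrathecal injections, so no group shows the ganglion without them. Whether the libraries of one group come from separate animals or from pools is not in the labels. The p-values below therefore measure only how far these particular samples spread, and that spread may be technical.

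Tumour necrosis factor (TNF) is a cytokine released by immune cells and glia that acts through the receptors TNFR1 and TNFR2. Etanercept is a soluble fusion of the TNFR2 ligand-binding part with an antibody Fc part, and it holds TNF away from both receptors. The dorsal root ganglion contains the cell bodies of sensory neurons, wrapped by satellite glia, together with Schwann cells, vessels and resident macrophages, and TNF is known to sensitise its neurons. In a bulk library, fewer cells of a type and less RNA per cell cannot be told apart.

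The file lists 22864 genes, of which 15531 passed the filter on low counts and were tested. The libraries held between 18285251 and 19981250 counts and between 17773 and 17921 detected genes. CPIP+ETA 1 stood apart from the rest. The chi-square per gene between 2 libraries was 9.61 to 12.57 for every pair with CPIP+ETA 1, its fellow CPIP+ETA 2 included (10.02), and 6.02 to 7.35 for the other pairs. The same library was lower in the Schwann cell markers Mbp, Prx and Pmp22, which summed to 4115 CPM there (reads of a gene scaled to library size by TMM), 6087 in CPIP+ETA 2 and 5134 to 6027 in the CPIP+Veh libraries. Red blood cell transcripts (Hbb, Hba1 and Alas2) summed to 261 and 155 CPM in CPIP+ETA 1 and 2, against 22.4 and 97.6 in CPIP+Veh 1 and 2 and 78.5 and 74.8 in sham. The tissue label was borne out by its markers, since 11 sensory neuron genes summed to between 19280 and 21357 CPM in every library, while the spinal cord genes summed to between 2.06 and 4.66. Macrophage markers (Aif1, Cd68, Csf1r and C1qa) summed to 117 and 121 CPM with etanercept and 102 and 122 with vehicle. Results that rest on CPIP+ETA 1 are given below with and without it.

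No gene passed the main test for etanercept against vehicle. edgeR's quasi-likelihood test called 0 of 15531 genes (0%) at a Benjamini-Hochberg adjusted p under 0.05, and the smallest adjusted p was 0.721. At an unadjusted p under 0.05 stood 800 genes (5.15%), 376 higher (2.42%) and 424 lower (2.73%) with etanercept. limma-voom called 0 genes (0%) and DESeq2 called 21 (0.135%), of which 13 were higher (0.0837%) and 8 lower (0.0515%). Of those 21, DESeq2 called 2 again without CPIP+Veh 1, 7 without CPIP+Veh 2, 9 without CPIP+ETA 1, 7 without CPIP+ETA 2, 17 without Sham+Veh 1 and 17 without Sham+Veh 2. Hif3a and LOC100911166 were called in none of these fits, and Anlnl1, Clec10a, Clec2l, Gpx2 and LOC686087 in those without a sham library only. In 5068 genes (32.6%) both CPIP+ETA libraries lay on one side of both CPIP+Veh libraries, 2443 of them higher (15.7%) and 2625 lower (16.9%). A log2 fold change of at least 1 in size together with groups that did not overlap was met by 177 genes (1.14%). Both etanercept libraries lay above the other 4 libraries in 1002 genes (6.45%) and below them in 1153 (7.42%). Words such as higher and lower below describe the values of these 4 libraries. Most genes are given with a log2 fold change and its SE, and some with levels or counts only.

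**Figure D1:**
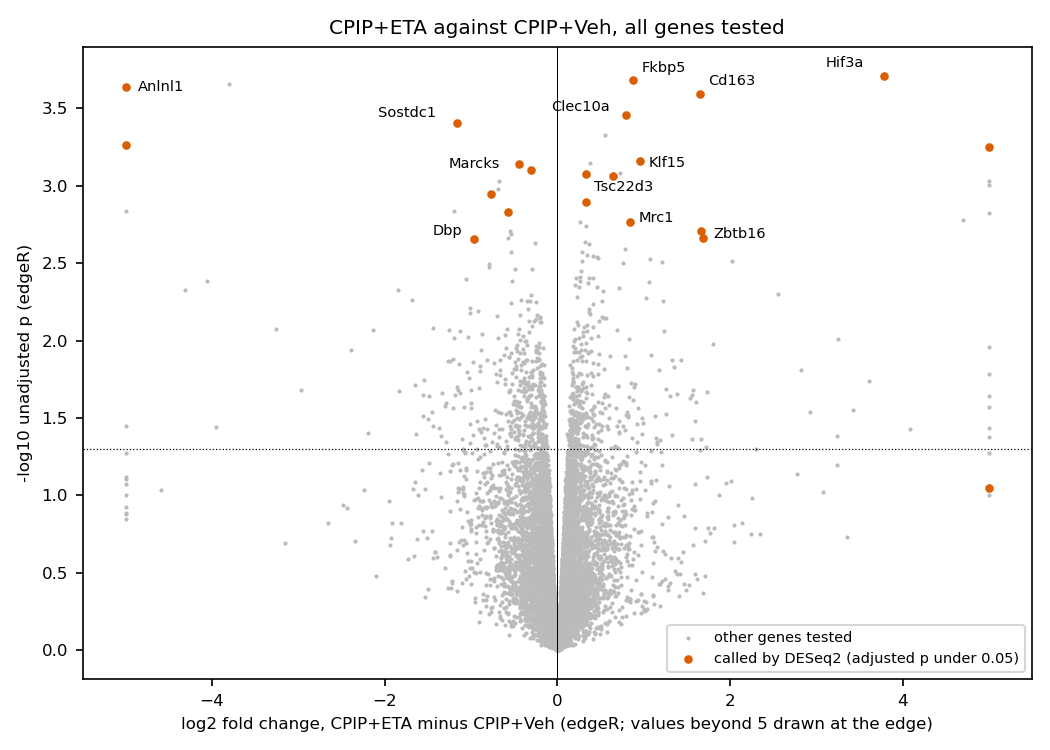
Log2 fold change of CPIP+ETA against CPIP+Veh (x axis) and -log10 of the unadjusted edgeR p (y axis) for the 15531 genes tested, each a point. The dotted line marks the unadjusted threshold of 0.05, and the 21 orange points are the genes called by DESeq2, while edgeR called 0.

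Genes that glucocorticoid hormones are known to induce were higher with etanercept. Of 30 such genes listed, 28 were tested. In 21 of the 28 both CPIP+ETA libraries lay above both CPIP+Veh libraries and in 0 below, beside 15.7% and 16.9% of all genes. At an unadjusted p under 0.05 stood 12 higher and 0 lower, and edgeR called 0. The median log2 fold change of the 28 was 0.41, against -0.0016 for all genes tested. In 16 of the 28 both etanercept libraries also lay above sham. The median was 0.49 without CPIP+ETA 1 and 0.27 without CPIP+ETA 2. The list was chosen with its direction in these libraries already known, so the counts are no independent evidence of it.

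Hif3a, a hypoxia-inducible factor subunit whose transcription glucocorticoids raise, stood at 2.01 and 2.34 CPM with etanercept, 0.101 and 0.202 with vehicle and 0.162 and 0.328 in sham. These levels rest on 40 and 43 counts with etanercept and on 2 and 4 with vehicle. Its log2 fold change was 3.79 (SE 0.51, edgeR unadjusted p = 0.000195, DESeq2 adjusted p = 0.0192), and between 3.39 and 4.34 with 1 library left out. DESeq2 no longer called it when any 1 of the 6 libraries was left out.

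Fkbp5 encodes a co-chaperone that holds the glucocorticoid receptor in a low-affinity state, and its transcription is a standard readout of receptor activity. Its level was 59.0 and 76.0 CPM with etanercept, 35.9 and 37.3 with vehicle and 34.2 and 36.9 in sham. The log2 fold change was 0.88 (SE 0.12, edgeR unadjusted p = 0.000208, DESeq2 adjusted p = 4.18e-05), and between 0.69 and 1.06 when any 1 library was left out. The 4 libraries without etanercept lay close together, and both etanercept libraries lay above them.

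Klf15, a transcription factor of amino acid and lipid metabolism, had 27.9 and 36.3 CPM with etanercept against 14.9 and 18.1 with vehicle and 17.4 and 15.1 in sham, a log2 fold change of 0.96 (SE 0.16, DESeq2 adjusted p = 0.00474). Tsc22d3, which encodes the anti-inflammatory protein GILZ, had 309 and 336 CPM against 250 and 261 with vehicle (log2 fold change 0.33, SE 0.06, DESeq2 adjusted p = 0.00339). Zbtb16, a zinc-finger transcription factor, had 21.4 and 46.8 CPM against 11.1 and 9.94, a log2 fold change of 1.69 (SE 0.35) that was 1.02 without CPIP+ETA 2. In each of these 3 genes the etanercept libraries lay above all 4 others. Klf9, Arrdc2, Mertk, Mt2A, Bcl6, Errfi1 and Cebpd, named after their values were seen, were the other members at an unadjusted p under 0.05, with log2 fold changes between 0.27 and 0.91. Not every member followed. Cdkn1a, an inhibitor of the cell cycle, had 6.20 and 7.30 CPM with etanercept and 6.63 and 8.32 with vehicle, and its groups overlapped.

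On the receptor side the members differed in direction. Among the 11 receptor, co-regulator and steroid-handling genes tested, 4 were higher without overlap (36.4%) and 2 lower (18.2%), beside 15.7% and 16.9% of all genes. Of the 11, 8 had a log2 fold change above 0, and the median was 0.02. Nr3c1, the glucocorticoid receptor gene, was lower in both etanercept libraries, at 46.4 and 54.1 CPM against 62.2 and 61.5 with vehicle and 55.4 and 64.2 in sham. Its log2 fold change of -0.30 (SE 0.10, unadjusted p = 0.0196) was -0.19 without CPIP+ETA 1. Ncor1, a corepressor of nuclear receptors, was higher at 69.1 and 68.7 CPM against 62.9 and 58.9 with vehicle and 66.3 and 62.4 in sham (log2 fold change 0.18, SE 0.06, unadjusted p = 0.0238). Ncoa1, a coactivator of nuclear receptors, had 73.1 and 76.0 CPM against 69.9 and 69.6 (log2 fold change 0.10, SE 0.05, unadjusted p = 0.109). In Ncor1 and Ncoa1 both etanercept libraries lay above all 4 others. The labels name no steroid treatment, and hormone levels were not measured in these files.

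The clock genes did not share one direction. Of 22 circadian genes tested, 5 were higher (22.7%) and 6 lower (27.3%) without overlap, beside 15.7% and 16.9% of all genes. At an unadjusted p under 0.05 stood 2 higher and 4 lower, together 27.3%, beside 5.15% of all genes. The median was -0.01. Dbp, a transcription factor driven by the clock through E-boxes, had 18.5 and 29.6 CPM with etanercept, 49.1 and 44.4 with vehicle and 42.7 and 38.4 in sham. Its log2 fold change was -0.96 (SE 0.20, DESeq2 adjusted p = 0.0114), and -0.65 without CPIP+ETA 1. Nfil3, a repressor at the same D-box elements that Dbp activates, was higher at 5.64 and 7.57 CPM against 3.04 and 4.49 (log2 fold change 0.81, SE 0.25, unadjusted p = 0.0149). Tef, a relative of Dbp, had 95.8 and 101 CPM against 106 and 114 (log2 fold change -0.16, SE 0.06, unadjusted p = 0.0301). Ciart, a clock repressor named after its values were seen, had 0.957 and 2.07 CPM against 3.14 and 2.93 (log2 fold change -1.01). Arntl, also named after its values were seen, is the clock activator that binds E-boxes, and it had 15.7 and 14.97 CPM against 11.7 and 12.2 (log2 fold change 0.36). In Dbp, Tef and Ciart CPIP+ETA 1 was the lower of the etanercept libraries. The labels give no time of day for tissue collection, so its part in these values was not tested.

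Promoters of the glucocorticoid and clock genes were searched for the motifs of both pathways, as far as RefSeq on build GRCr8 lists a promoter, from 250 bases before to 50 after the start. The glucocorticoid response element was taken as the core TGTTCT with its reverse complement 3 bases ahead of it. It occurred in 2 of 27457 promoters (0.00728%) and in 0 of the 25 promoters of the glucocorticoid list. An element this rare would be absent from almost any 25 promoters, so its absence here says nothing about the list. The core TGTTCT alone, searched on both strands and including those elements, was found in 20.1% of all promoters and in 2 of those 25, Fam107a and Gpx3. The E-box CACGTG, which reads the same on both strands, was found in 6.65% of all promoters, in 4 of the 25 (Bcl6, Dusp1, Klf15 and Mt2A) and in 4 of 18 clock promoters (Bhlhe40, Bhlhe41, Ciart and Tef). The 250 bases before the start are shown for the 3 of these genes whose values are given above, 1 higher and 2 lower with etanercept, with the E-box in capitals. Klf15 lies at chr4:124522765-124523014 on the plus strand with the E-box beginning 101 bases before the start. Ciart lies at chr2:186112247-186112496 on the minus strand with E-boxes beginning 93, 35 and 21 bases before it. Tef lies at chr7:115206577-115206826 on the plus strand with the E-box beginning 198 bases before it.
Klf15: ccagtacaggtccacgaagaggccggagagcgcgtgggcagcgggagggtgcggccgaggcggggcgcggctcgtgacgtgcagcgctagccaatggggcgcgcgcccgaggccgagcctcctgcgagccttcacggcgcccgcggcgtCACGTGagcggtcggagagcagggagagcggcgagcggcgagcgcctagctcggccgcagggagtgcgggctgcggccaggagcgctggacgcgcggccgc
Ciart: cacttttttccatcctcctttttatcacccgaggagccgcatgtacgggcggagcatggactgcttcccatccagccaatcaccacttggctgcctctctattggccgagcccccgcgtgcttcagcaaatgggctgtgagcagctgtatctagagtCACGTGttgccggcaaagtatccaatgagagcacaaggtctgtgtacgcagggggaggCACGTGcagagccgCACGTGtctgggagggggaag
Tef: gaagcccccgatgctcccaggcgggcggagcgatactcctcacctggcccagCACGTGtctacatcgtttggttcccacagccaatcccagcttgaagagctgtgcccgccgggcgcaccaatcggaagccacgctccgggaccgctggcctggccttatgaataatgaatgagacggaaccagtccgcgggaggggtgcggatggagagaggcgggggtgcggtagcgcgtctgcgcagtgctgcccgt
The motif stands before Klf15, which was higher in both etanercept libraries, and before Ciart and Tef, which were lower. A match describes the letters in this window and is no evidence of binding.

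Genes of perivascular scavenger macrophages, the resident cells along vessels that take up haemoglobin and glycoproteins, were higher with etanercept, while core macrophage genes were not. Of 28 perivascular genes listed, 21 were tested. Both etanercept libraries lay above both vehicle libraries in 10 (47.6%) and below in 1 (4.76%), beside 15.7% and 16.9% of all genes. At an unadjusted p under 0.05 stood 7 higher and 0 lower, beside 2.42% and 2.73% of all genes. The median log2 fold change was 0.36, and between 0.25 and 0.60 with any 1 library left out. Of 41 core macrophage and microglia-like genes, 5 were higher (12.2%) and 6 lower (14.6%) without overlap, with a median of -0.03.

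Cd163, the receptor for haemoglobin bound to haptoglobin, stood at 23.8 and 17.04 CPM with etanercept, 5.21 and 7.77 with vehicle and 10.02 and 8.54 in sham. Its log2 fold change was 1.65 (SE 0.23, edgeR unadjusted p = 0.000255, DESeq2 adjusted p = 4.18e-05), and 1.39 without CPIP+ETA 1. Both etanercept libraries lay above all 4 others, and sham lay above vehicle.

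Clec10a, a galactose-binding lectin, had 27.9 and 30.4 CPM with etanercept, 16.3 and 17.4 with vehicle and 17.5 and 14.3 in sham (log2 fold change 0.79, SE 0.12, DESeq2 adjusted p = 0.00614). Mrc1, the mannose receptor, had 41.8 and 53.0 CPM against 24.0 and 28.8 (log2 fold change 0.84, SE 0.17, DESeq2 adjusted p = 0.0126). Lyve1, the hyaluronan receptor of perivascular macrophages and lymphatic vessels, had 11.5 and 11.7 CPM against 4.96 and 6.81 with vehicle and 8.66 and 9.30 in sham (log2 fold change 0.97, SE 0.16, DESeq2 adjusted p = 0.0783). All 3 lay above the 4 other libraries in both etanercept libraries. Ms4a6bl, a membrane protein of the MS4A family, had 8.36 and 8.39 CPM against 5.01 and 5.09 (log2 fold change 0.73, SE 0.13), and DESeq2 did not call it (adjusted p = 0.812). F13a1, a coagulation factor subunit made by resident macrophages, went the other way, at 5.39 and 5.28 CPM against 5.97 and 8.27, and was named after its values were seen. As background, Cd163 is also a known glucocorticoid target, and Mertk of the glucocorticoid list is a macrophage receptor for dying cells.

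Some other macrophage genes were lower, namely Gpr34 and the 3 core macrophage genes with the lowest p. The core list as a whole had 5 of 41 members higher and 6 lower without overlap. Gpr34, a lysophosphatidylserine receptor of microglia and macrophages, had 2.42 and 2.01 CPM with etanercept against 5.16 and 5.04 with vehicle and 3.90 and 5.47 in sham (log2 fold change -1.20, SE 0.23, unadjusted p = 0.00146). Tlr2, a receptor for bacterial lipoproteins, had 2.87 and 3.49 CPM against 4.71 and 5.04 (log2 fold change -0.62, SE 0.18). Lyz2, macrophage lysozyme, had 242 and 323 CPM against 417 and 381 (log2 fold change -0.50, SE 0.15), and -0.30 without CPIP+ETA 1. Irf8, a transcription factor of myeloid cells, had 10.07 and 8.22 CPM against 14.1 and 11.3 (log2 fold change -0.47, SE 0.17), and -0.30 without CPIP+Veh 1. For Gpr34 and Tlr2 both etanercept libraries lay below sham as well, whereas for Lyz2 sham lay at 315 and 252 CPM, in the same range.

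**Figure D2:**
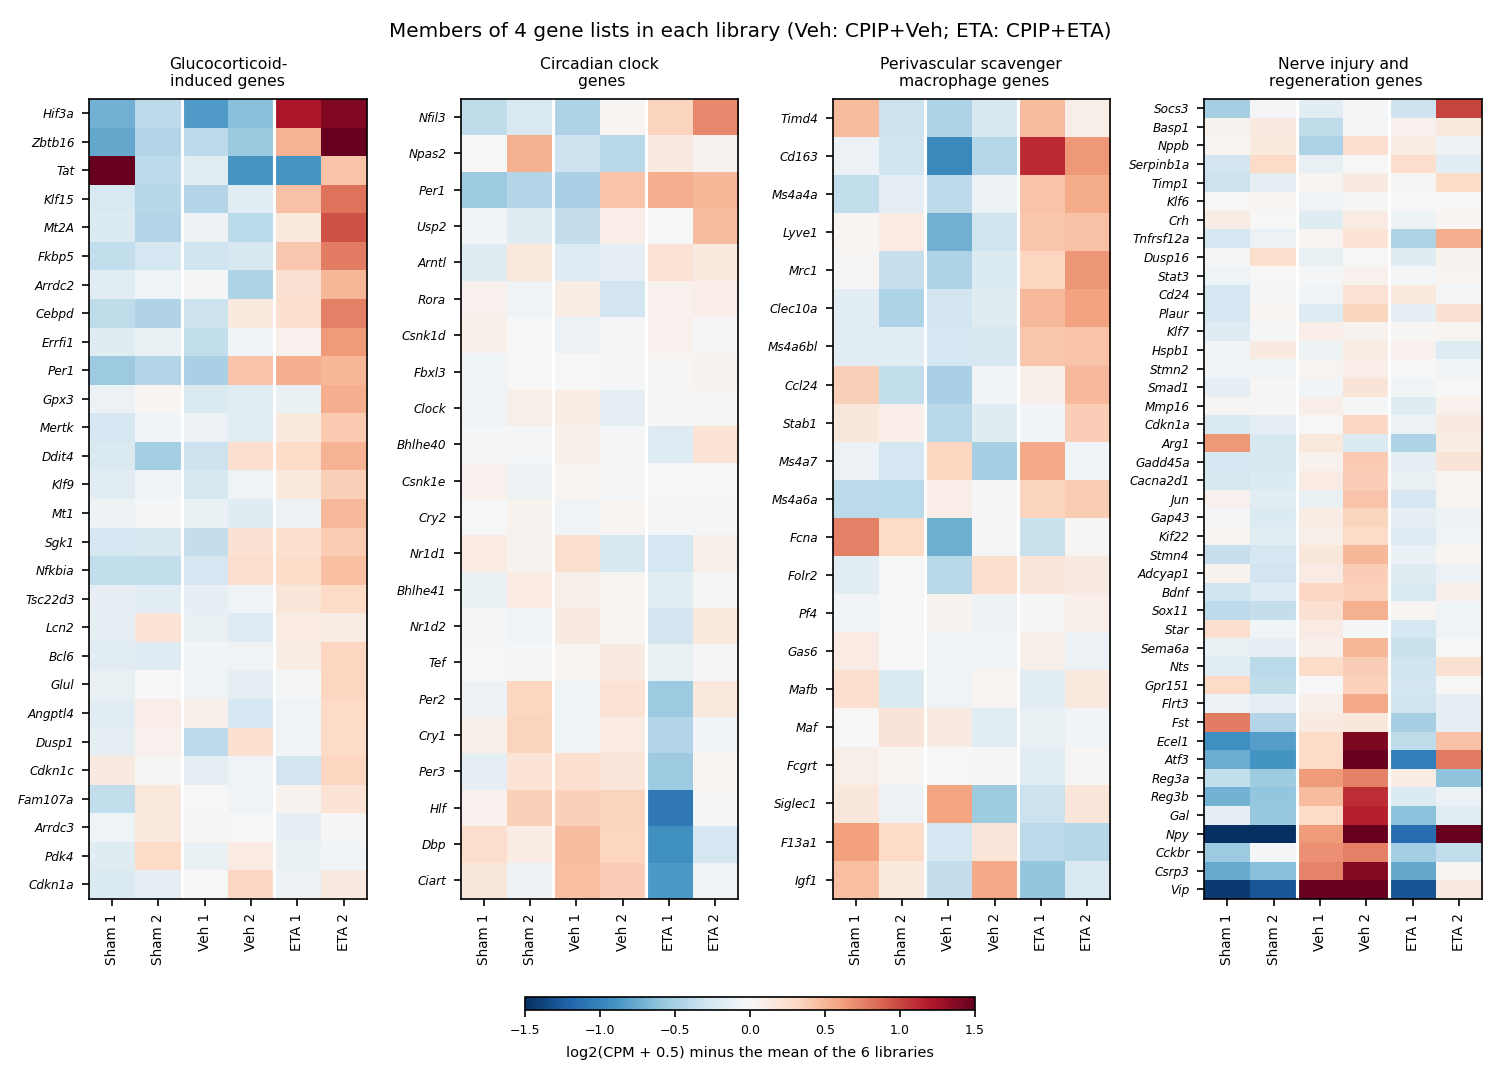
Members tested of 4 gene lists (rows, ordered by log2 fold change) in the 6 libraries (columns), as log2(CPM + 0.5) minus the mean of the 6 libraries, red above and blue below that mean. In the glucocorticoid-induced list 21 of 28 genes lie higher in both CPIP+ETA columns than in both CPIP+Veh columns, and in the nerve injury list 21 of 43 lie lower.

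Some red blood cell transcripts, among them Hbb, Hba1 and Hba2, were higher with etanercept, while others were lower. Over the list 11 log2 fold changes were above 0 and 5 below. Of 16 tested, 6 were higher without overlap (37.5%) and 3 lower (18.8%), beside 15.7% and 16.9% of all genes, 3 were higher at an unadjusted p under 0.05, and the median of 0.46 ran from 0.09 without CPIP+ETA 2 to 1.22 without CPIP+Veh 2. Hbb, a beta globin and one of the 6 largest folds on the higher side, had 99.4 and 62.4 CPM with etanercept, 10.53 and 29.1 with vehicle and 23.7 and 34.3 in sham (log2 fold change 2.03, SE 0.45, unadjusted p = 0.00307), between 1.48 and 2.94 with 1 library left out. Hba2, an alpha globin, had 46.9 and 27.1 CPM against 5.67 and 19.5 (log2 fold change 1.56, SE 0.53), between 0.93 and 2.71 with 1 library left out. Hba1, an alpha globin with near-identical copies, had 160 and 91.4 CPM with etanercept, 11.7 and 67.3 with vehicle and 53.7 and 40.1 in sham (log2 fold change 1.67, SE 0.67), between 0.91 and 3.42 with 1 library left out. Hmox1, which breaks down haem, had 19.4 and 27.3 CPM against 17.4 and 16.3 (log2 fold change 0.47, SE 0.16, unadjusted p = 0.025), and 0.20 without CPIP+ETA 2. The part of blood carried with the ganglia in the values of Cd163 and the other scavenger genes was not tested.

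Nerve injury and regeneration genes were lower with etanercept. Of 49 listed, 43 were tested, of which 21 were lower (48.8%) and 1 higher (2.33%) without overlap, beside 16.9% and 15.7% of all genes. At an unadjusted p under 0.05 stood 13 lower and 1 higher, beside 2.73% and 2.42%. The median log2 fold change was -0.29, and -0.16 without CPIP+Veh 2. In 18 of the 43 both CPIP+Veh libraries lay above the other 4, beside 6.7% of all genes, so that etanercept and sham lay on the same side. The fold changes of etanercept against vehicle and of vehicle against sham share the CPIP+Veh libraries.

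Cckbr, a cholecystokinin receptor gene induced in injured sensory neurons, had 0.403 and 0.490 CPM with etanercept, 1.57 and 1.66 with vehicle and 0.379 and 0.766 in sham (log2 fold change -1.84, SE 0.44, unadjusted p = 0.00469). Gal, the neuropeptide galanin, had 3.73 and 5.28 CPM with etanercept, 7.49 and 14.02 with vehicle and 5.47 and 3.89 in sham (log2 fold change -1.26, SE 0.34), and -0.74 without CPIP+Veh 2. For both genes the etanercept and sham libraries overlapped and the vehicle libraries lay above. Gap43, a growth cone protein, had 248 and 259 CPM against 295 and 344 with vehicle (log2 fold change -0.33, SE 0.09, and -0.22 without CPIP+Veh 2). Vip, a peptide of injured afferents, had 0.0504 and 0.980 CPM against 3.29 and 6.51, and its log2 fold change of -3.26 (SE 0.88) was -2.31 without CPIP+ETA 1 and -6.43 without CPIP+ETA 2. Csrp3, a muscle LIM protein that injured neurons also make, had 0.101 and 0.545 CPM against 1.22 and 2.17. Its log2 fold change of -2.39 (SE 0.69) was -1.62 without CPIP+ETA 1 and -3.99 without CPIP+ETA 2. The low levels of Vip and Csrp3 make their fold changes imprecise.

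Nociceptor markers and potassium channel subunits had small medians, but a larger share of their members than of all genes was higher without overlap. Some single neuronal genes differed by more. Of 34 nociceptor markers 12 were higher (35.3%) and 3 lower (8.82%) without overlap, beside 15.7% and 16.9% of all genes, with a median of 0.08, and 0.03 without CPIP+ETA 1. Lpar5, a lysophosphatidic acid receptor, had 11.9 and 11.2 CPM against 9.32 and 7.26 (log2 fold change 0.48, SE 0.14), and 0.31 without CPIP+Veh 2. Adcyap1, which encodes the peptide PACAP, had 65.9 and 70.7 CPM against 81.6 and 97.3 (log2 fold change -0.39, SE 0.13), and -0.26 without CPIP+Veh 2. Of 69 potassium channel subunits 21 were higher (30.4%) and 6 lower (8.70%) without overlap, with a median of 0.06, between 0.05 without CPIP+ETA 1 and 0.11 without CPIP+ETA 2. In 10 of the 69 (14.5%) both vehicle libraries lay below the other 4, beside 6.72% of all genes. Both etanercept libraries lay above the other 4 in 4 (5.8%), beside 6.45% of all genes. Kcna2, a subunit of axonal delayed rectifiers, had 565 and 521 CPM against 510 and 468 with vehicle and 523 and 538 in sham. Its log2 fold change was 0.15 (SE 0.06), 0.09 without CPIP+ETA 1 and 0.09 without CPIP+Veh 2. Scn11a, the sodium channel NaV1.9 of nociceptors, had 467 and 461 CPM against 409 and 436 (log2 fold change 0.14, SE 0.05, unadjusted p = 0.042). Cacna2d1, an alpha2delta calcium channel subunit and the binding site of gabapentin, had 159 and 175 CPM against 185 and 219 with vehicle and 144 and 148 in sham (log2 fold change -0.28, SE 0.09), and -0.15 without CPIP+Veh 2. Gabra5, a GABA-A receptor subunit, had 7.46 and 7.95 CPM against 11.9 and 10.9 with vehicle and 7.36 and 6.79 in sham (log2 fold change -0.57, SE 0.12). Npy2r, a receptor for neuropeptide Y, had 9.97 and 10.4 CPM against 14.8 and 14.8 (log2 fold change -0.54, SE 0.12, unadjusted p = 0.00269). In Gabra5 and Npy2r the vehicle libraries lay above both other groups.

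For the drug's target and its receptors no difference could be told from the spread between libraries. Tnf had 4 and 9 counts with etanercept, 5 and 8 with vehicle and 4 and 8 in sham, which left it below the filter on low counts. Lta, a secreted ligand of the same family, had 0 and 2 counts with etanercept, 2 and 0 with vehicle and 2 and 1 in sham, below the filter too. In the edgeR fit with no filter on low counts, over 19423 genes, the log2 fold change was 0.06 (SE 0.72, unadjusted p = 0.935) for Tnf and 0.05 (SE 1.78, unadjusted p = 0.978) for Lta. Tnfrsf1a, the TNFR1 gene, had 47.2 and 47.5 CPM with etanercept and 48.1 and 51.4 with vehicle (log2 fold change -0.07, SE 0.06), between -0.12 and -0.02 with 1 library left out. Tnfrsf1b, the TNFR2 gene, had 4.23 and 5.50 CPM against 3.19 and 4.49, with groups that overlapped (log2 fold change 0.34, SE 0.24, between 0.12 and 0.61 with 1 library left out). Ltb, a membrane ligand of the family, had 0.705 and 2.01 CPM against 1.57 and 1.92 (log2 fold change -0.36, SE 0.48), and 0.21 without CPIP+ETA 1.

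Downstream of the receptors the picture was similar. Of 37 TNF ligands, receptors and signalling proteins tested, 5 were higher (13.5%) and 7 lower (18.9%) without overlap, beside 15.7% and 16.9% of all genes, 0 higher and 1 lower at an unadjusted p under 0.05, with a median of -0.02. Tnfsf10, the death ligand TRAIL, was that gene, at 5.14 and 6.75 CPM against 9.27 and 7.47 (log2 fold change -0.49, SE 0.19), and -0.31 without CPIP+ETA 1. Adam17, the protease that sheds TNF, had 38.8 and 50.5 CPM against 51.4 and 56.1 (log2 fold change -0.27, SE 0.12), and -0.09 without CPIP+ETA 1. Tnfsf13b, the B cell factor BAFF, had 1.26 and 1.58 CPM against 0.810 and 0.908 (log2 fold change 0.72, SE 0.36). Of 28 NF-kB subunits, inhibitors and targets 3 were higher (10.7%) and 1 lower (3.57%), with a median of 0.05 that was 0.20 without CPIP+ETA 1 and -0.21 without CPIP+ETA 2. Nfkbia, the NF-kB inhibitor that glucocorticoids also induce, had 27.0 and 30.5 CPM against 18.6 and 26.8 (log2 fold change 0.34, SE 0.17), and 0.11 without CPIP+Veh 1. Sod2, mitochondrial superoxide dismutase, had 236 and 206 CPM against 263 and 233, with groups that overlapped (log2 fold change -0.16, SE 0.09). Cxcl1, a neutrophil chemokine, had 0.252 CPM in CPIP+ETA 1 and 3.70 in CPIP+ETA 2 against 0.152 and 0.202, so its log2 fold change of 3.43 (SE 1.22) came from 1 library and was 0.49 without it. Of 49 cytokines, chemokines and receptors 10 were higher (20.4%) and 6 lower (12.2%), with a median of -0.02. Il6r, the interleukin-6 receptor, had 11.0 and 14.3 CPM against 9.01 and 9.79 (log2 fold change 0.43, SE 0.15, and 0.23 without CPIP+ETA 2). Cxcr4, a chemokine receptor, had 15.4 and 16.01 CPM against 21.4 and 18.01 (log2 fold change -0.33, SE 0.11, and -0.19 without CPIP+Veh 1).

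Among the immune effector lists, the medians of MHC class I, MHC class II, interferon-stimulated and complement genes were below 0, and that of neutrophil markers was above 0. These medians moved when 1 library was left out. Log2 fold changes were below 0 in 19 of 27 MHC class I, 8 of 11 MHC class II and 39 of 46 interferon-stimulated genes. They were below 0 in 15 of 27 complement genes and 1 of 9 neutrophil markers, beside 7835 of all 15531 genes. Of 27 MHC class I and peptide loading genes 0 were higher and 8 lower without overlap (29.6%), beside 15.7% and 16.9% of all genes, with a median of -0.08, or -0.03 without CPIP+Veh 1. B2m, the invariant light chain, had 553 and 597 CPM against 632 and 638 (log2 fold change -0.14, SE 0.05, and -0.09 without CPIP+ETA 1). RT1-A1, a heavy chain whose copies are hard to tell apart, had 71.3 and 55.3 CPM against 78.6 and 82.9 (log2 fold change -0.35, SE 0.12, and -0.18 without CPIP+ETA 2). RT1-T24-4, another heavy chain, had 33.1 and 27.1 CPM against 49.8 and 34.1 (log2 fold change -0.48, SE 0.18, and -0.18 without CPIP+Veh 1).

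In 2 further lists the share that was lower was near the background, while few or no members were higher. Of 46 interferon-stimulated genes 9 were lower without overlap (19.6%, beside 16.9% of all genes) and 1 higher (2.17%, beside 15.7%), and the median of -0.25 was 0.03 without CPIP+Veh 1. Parp9, an antiviral ADP-ribosyltransferase, had 19.7 and 20.4 CPM against 40.6 and 28.6 (log2 fold change -0.79, SE 0.18), and -0.51 without CPIP+Veh 1. Gbp2, a guanylate-binding protein, had 24.6 and 28.1 CPM against 40.3 and 32.4 (log2 fold change -0.46, SE 0.13), and -0.29 without CPIP+Veh 1. Gbp5, a protein of the same family, had 7.81 and 9.75 CPM against 13.4 and 11.05 (log2 fold change -0.48, SE 0.15). Of 11 MHC class II genes 2 were lower (18.2%) and 0 higher, with a median of -0.25, or -0.01 without CPIP+ETA 2. Cd74, the invariant chain, had 204 and 162 CPM against 195 and 250, with groups that overlapped (log2 fold change -0.28, SE 0.15).

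The median of the neutrophil markers was above 0 but changed sign when 1 library was left out. Of 17 listed only 9 were tested, of which 2 were higher (22.2%) and 0 lower without overlap, beside 15.7% and 16.9% of all genes. The median of 0.31 ran from -0.45 without CPIP+Veh 1 to 1.72 without CPIP+Veh 2. Csf3r, the receptor for granulocyte colony-stimulating factor, had 3.63 and 3.05 CPM against 2.18 and 2.57 (log2 fold change 0.49, SE 0.23). Lcn2, a lipocalin that binds siderophores, had 4.08 and 4.03 CPM against 3.39 and 3.18 (log2 fold change 0.30, SE 0.20). Retnlg, a resistin-like protein of neutrophils, had 5.19 CPM in CPIP+ETA 1 and 0.163 in CPIP+ETA 2 against 0.810 and 0.706. Of 27 complement genes 3 were higher (11.1%) and 5 lower (18.5%) without overlap, near the same shares of all genes. Their median was -0.04, between -0.10 and 0.03 with 1 library left out. Cfb, complement factor B, had 18.8 and 8.60 CPM against 8.15 and 5.801 (log2 fold change 0.98, SE 0.36), and 0.30 without CPIP+ETA 1. Cd59, an inhibitor of the membrane attack complex, had 674 and 638 CPM against 731 and 713 (log2 fold change -0.14, SE 0.05).

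Mast cell markers were low in level and mostly lower with etanercept. Of 20 listed only 11 were tested, of which 7 were lower (63.6%) and 1 higher (9.09%) without overlap, beside 16.9% and 15.7% of all genes, with a median of -0.58 that was -0.24 without CPIP+Veh 2. Mcpt1l1, a mast cell protease with near-identical relatives, had 1.31 and 1.25 CPM against 2.84 and 5.45 with vehicle and 3.63 and 6.29 in sham (log2 fold change -1.69, SE 0.42, unadjusted p = 0.00546). Kit, the stem cell factor receptor, which sensory neurons also express, had 65.7 and 54.7 CPM against 71.5 and 73.9 (log2 fold change -0.27, SE 0.10), and -0.15 without CPIP+ETA 2. Ms4a2, the beta chain of the IgE receptor, had 0.201 and 0.163 CPM against 0.608 and 0.404 (log2 fold change -1.43, SE 0.55). In Mcpt1l1 and Ms4a2 the etanercept libraries lay below all 4 others.

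Lists of growth and protein synthesis lay lower by small amounts. Of 42 cell division genes 19 were lower (45.2%) and 1 higher (2.38%) without overlap, beside 16.9% and 15.7% of all genes, with a median of -0.27 that ran from -0.41 to -0.11 with 1 library left out. Their median was 0.24 for vehicle against sham and -0.06 for etanercept against sham. In 11 (26.2%) both vehicle libraries lay above the other 4, beside 6.7% of all genes. Both etanercept libraries lay below the other 4 in 7 (16.7%), beside 7.42% of all genes. Ccnd1, cyclin D1, had 39.2 and 42.6 CPM against 50.5 and 59.3 (log2 fold change -0.42, SE 0.10, unadjusted p = 0.00548), and Ccne2, cyclin E2, had 1.41 and 1.58 against 2.78 and 2.72 (log2 fold change -0.88, SE 0.25). Kif11, a motor of the mitotic spindle, had 3.02 and 3.05 CPM against 4.15 and 4.79 (log2 fold change -0.56, SE 0.19). Of 76 cytosolic ribosomal protein genes 42 were lower (55.3%) and 1 higher (1.32%) without overlap, with a median of only -0.08. That median stayed between -0.09 and -0.07 with any 1 library left out. Rpl5, a large subunit protein, had 245 and 241 CPM against 278 and 267 (log2 fold change -0.17, SE 0.05), and Rps4x, a small subunit protein, had 340 and 338 against 369 and 385 (log2 fold change -0.15, SE 0.05). Rpl35a, another large subunit protein, had 89.6 and 85.6 CPM against 98.7 and 96.7 (log2 fold change -0.16, SE 0.05). Ribosomal protein genes have many processed copies, so their counts are uncertain.

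Of 30 immediate early genes 8 were higher (26.7%) and 1 lower (3.33%) without overlap, beside 15.7% and 16.9% of all genes, and their median of 0.25 was -0.01 without CPIP+ETA 2. In 6 of the 30 (20%) both vehicle libraries lay below the other 4, beside 6.72% of all genes. Both etanercept libraries lay above the other 4 in 2 (6.67%), beside 6.45% of all genes. Nr4a1, an orphan nuclear receptor induced by activity, had 40.7 and 49.2 CPM against 31.6 and 33.8 (log2 fold change 0.46, SE 0.10). Fosb, a Fos family factor, had 2.22 and 3.32 CPM against 0.759 and 1.06 with vehicle and 1.52 and 5.03 in sham (log2 fold change 1.60, SE 0.60). Zfp36, which destabilises cytokine messages, had 15.97 and 25.9 CPM against 10.4 and 15.5 with vehicle and 16.2 and 17.5 in sham (log2 fold change 0.69, SE 0.26), and 0.30 without CPIP+ETA 2. Of 37 heat shock genes 11 were higher (29.7%) and 0 lower without overlap, with a median of 0.02. Hspa1a, an inducible HSP70, had 4.89 and 3.65 CPM against 1.11 and 2.62 (log2 fold change 1.19, SE 0.48), and 0.71 without CPIP+Veh 1. Hsph1, an HSP110 co-chaperone, had 472 and 444 CPM against 411 and 424 (log2 fold change 0.13, SE 0.06). LOC108348108, which has only a provisional name, had 42.7 and 42.5 CPM against 35.8 and 30.8 (log2 fold change 0.36, SE 0.08).

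For the Schwann cell and fibroblast lists the medians depended on CPIP+ETA 1. Of 29 Schwann cell and myelin genes 0 were higher and 1 lower (3.45%) without overlap, and the median of -0.06 was 0.11 without CPIP+ETA 1 and -0.32 without CPIP+ETA 2. Cnp, a myelin enzyme, was that gene, at 194 and 222 CPM against 247 and 235 (log2 fold change -0.21, SE 0.09), and -0.12 without CPIP+ETA 1. Fibroblast, perineurial and meningeal genes were lower without overlap in 7 of 30 (23.3%, beside 16.9% of all genes) and higher in 0, with a median of -0.26 that was -0.04 without CPIP+ETA 1. Apod, a lipocalin of perineurial and endoneurial fibroblasts, had 833 and 1115 CPM against 1227 and 1477 (log2 fold change -0.47, SE 0.15), and -0.28 without CPIP+ETA 1. Lum, a proteoglycan of collagen fibrils, had 114 and 174 CPM against 181 and 220 (log2 fold change -0.48, SE 0.19), and -0.20 without CPIP+ETA 1. Slc22a6, an organic anion transporter, had 0.353 and 1.85 CPM against 2.43 and 4.39 (log2 fold change -1.64, SE 0.64), and -0.88 without CPIP+ETA 1. Satellite glial markers had a median of 0.02, with 4 of 28 higher (14.3%) and 1 lower (3.57%), beside 15.7% and 16.9% of all genes. Glul, glutamine synthetase, had 280 and 356 CPM against 270 and 258 (log2 fold change 0.27, SE 0.11), and 0.08 without CPIP+ETA 2. Sox2, a transcription factor of glia, had 24.4 and 25.2 CPM against 21.2 and 21.5 (log2 fold change 0.22, SE 0.09). Fabp7, a fatty acid-binding protein, had 25.4 and 22.7 CPM against 18.99 and 21.9. Its log2 fold change of 0.23 (SE 0.11) was 0.15 without CPIP+ETA 1 and 0.14 without CPIP+Veh 1. Muscle markers, which measure tissue carried along in dissection, had a median of -0.51 that turned to 0.77 without CPIP+Veh 2.

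**Figure D3:**
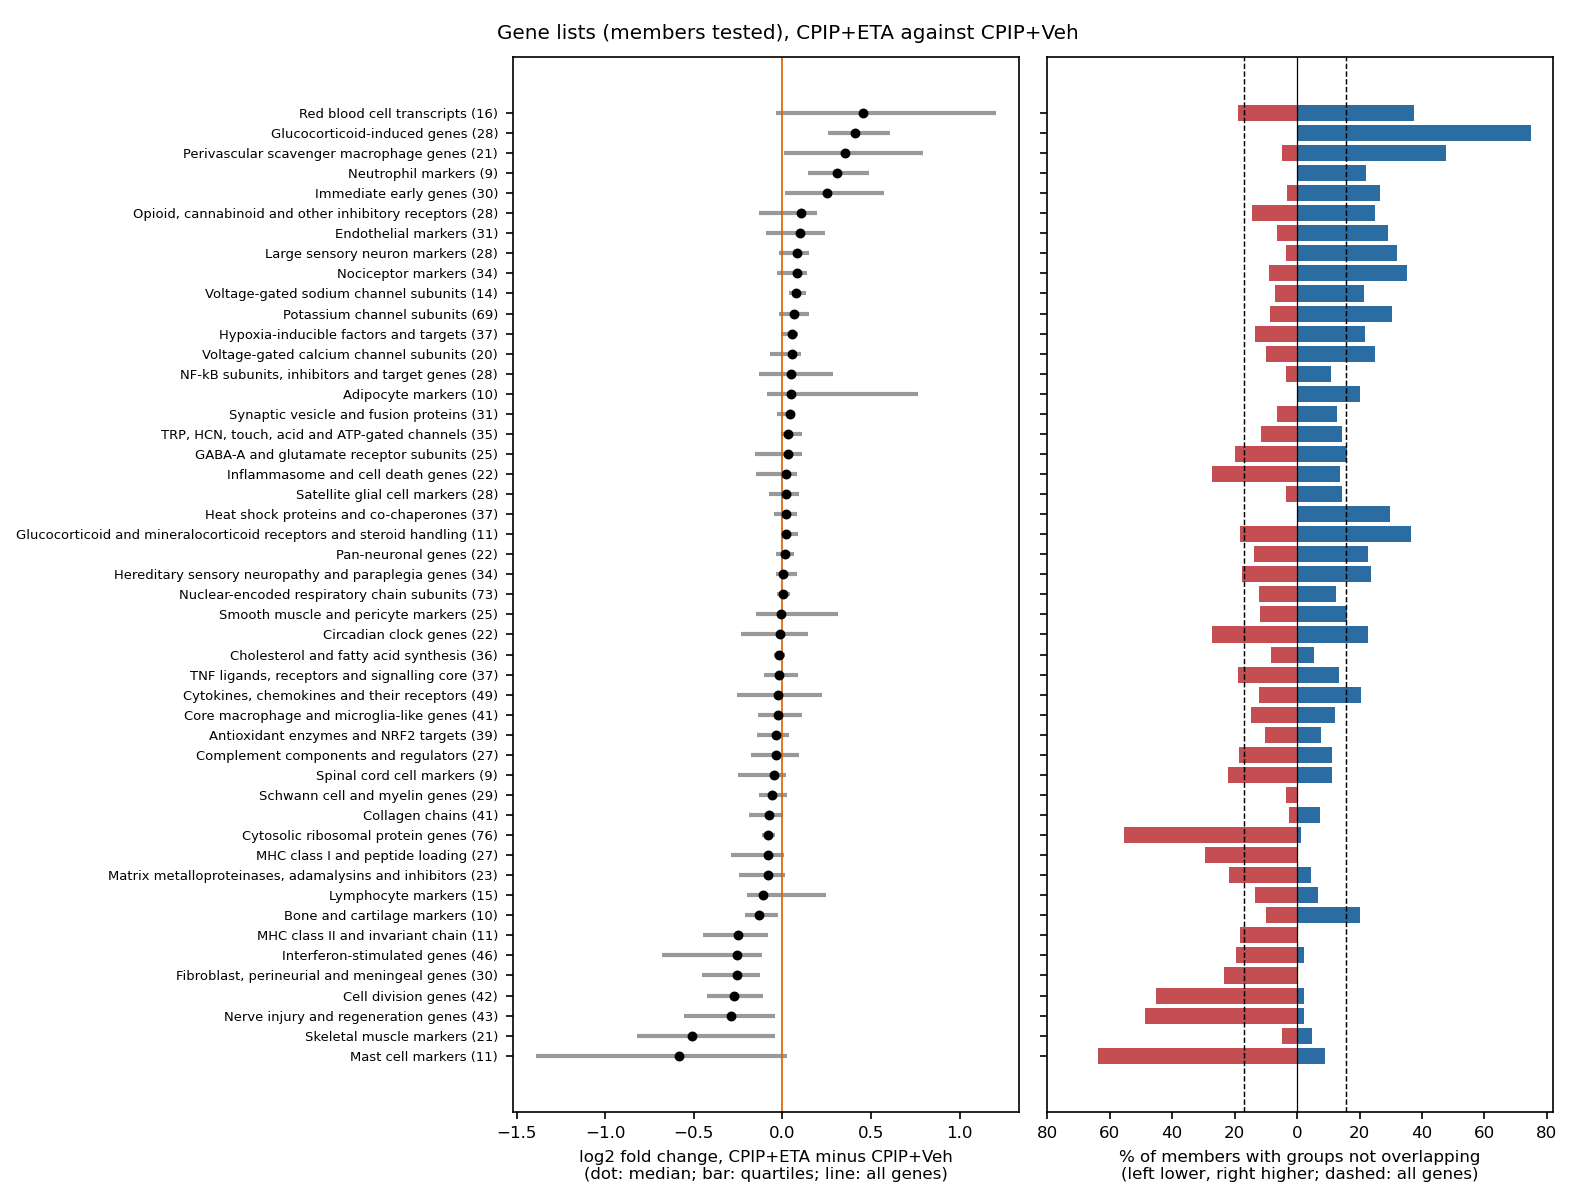
Left, the median (dot) and quartiles (bar) of the log2 fold change of CPIP+ETA against CPIP+Veh over the members tested of 48 gene lists, with the median of all genes as a line. Right, the percentage of members lower (left) or higher (right) in both CPIP+ETA libraries than in both CPIP+Veh libraries, with the shares of all genes, 16.9% and 15.7%, dashed.

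**Figure D4:**
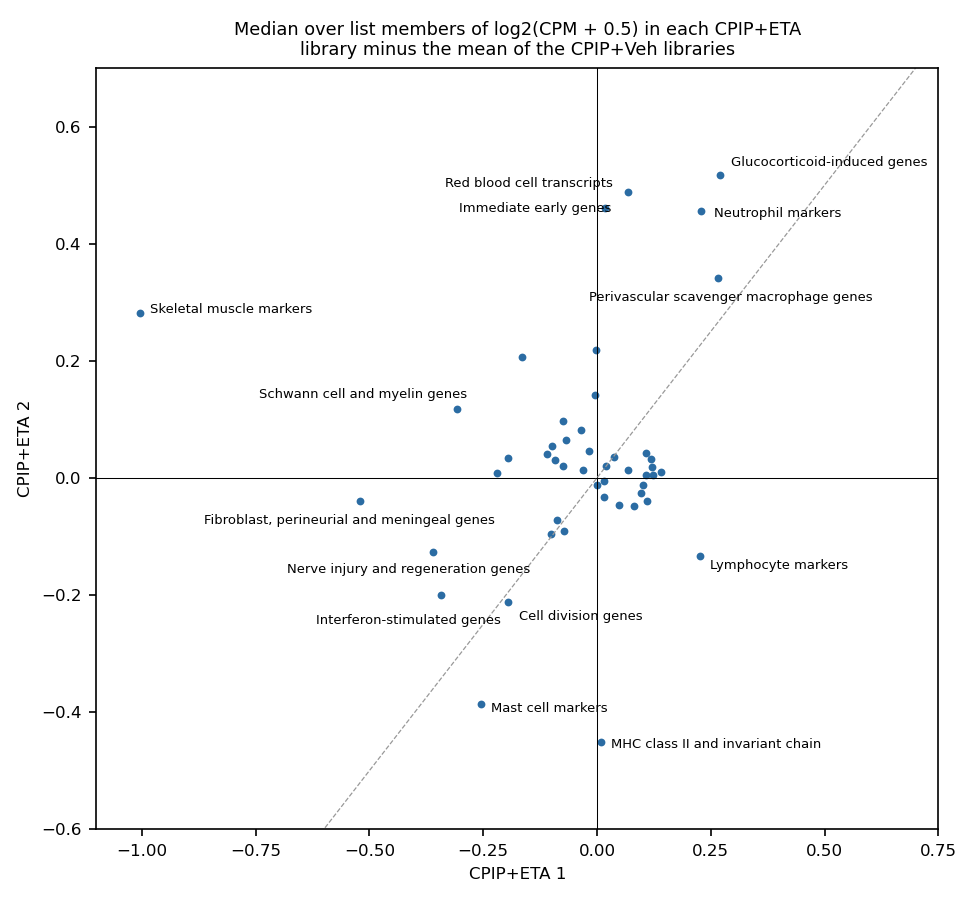
Median over the members of each gene list (points) of log2(CPM + 0.5) in CPIP+ETA 1 (x axis) and CPIP+ETA 2 (y axis), each minus the mean of the CPIP+Veh libraries. Glucocorticoid-induced genes (0.27 and 0.52) and perivascular macrophage genes (0.27 and 0.34) lie above 0 in both libraries, while Schwann cell and myelin genes (-0.31 and 0.12) differ in sign.

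Several genes with the lowest p belong to none of these lists. Sostdc1, a secreted antagonist of BMP and Wnt signals, had 30.0 and 29.9 CPM with etanercept, 53.8 and 79.8 with vehicle and 48.3 and 43.7 in sham. Its log2 fold change was -1.16 (SE 0.18, edgeR unadjusted p = 0.000393, DESeq2 adjusted p = 2.17e-05), and -0.84 without CPIP+Veh 2. Fkbp5 and Sostdc1 were the genes that DESeq2 called whichever of the 6 libraries was left out. Rspo3, an R-spondin that strengthens Wnt signals, had 0.151 and 0.327 CPM against 0.759 and 1.36 (log2 fold change -2.13, SE 0.58).

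Marcks, a substrate of protein kinase C at the plasma membrane, had 86.5 and 98.9 CPM with etanercept, 123 and 129 with vehicle and 118 and 120 in sham (log2 fold change -0.44, SE 0.07, DESeq2 adjusted p = 0.00535). H3f3b, a gene of the replacement histone H3.3, had 205 and 214 CPM against 265 and 254 (log2 fold change -0.31, SE 0.05, DESeq2 adjusted p = 0.00458). Gpx2, a glutathione peroxidase, had 82.7 and 82.0 CPM against 123 and 121 (log2 fold change -0.57, SE 0.11, DESeq2 adjusted p = 0.00634). Each of these lay below all 4 other libraries with etanercept. Xkr7, of the Kell blood group related membrane proteins, had 22.7 and 26.6 CPM against 40.0 and 43.8 (log2 fold change -0.77, SE 0.14, DESeq2 adjusted p = 0.00973). Cyp26b1, a retinoic acid hydroxylase, had 6.40 and 6.81 CPM against 9.82 and 11.2 (log2 fold change -0.67, SE 0.12). Ebf2, a transcription factor, had 12.3 and 13.8 CPM against 17.97 and 20.1 (log2 fold change -0.55, SE 0.11), and Nwd2, a large protein with a NACHT domain, had 43.2 and 44.4 against 56.2 and 70.6 (log2 fold change -0.53, SE 0.11). DESeq2 did not call Cyp26b1, Ebf2 or Nwd2.

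On the higher side stood Mical2, an actin-oxidising enzyme, with 57.9 and 62.5 CPM against 45.2 and 47.6 (log2 fold change 0.38, SE 0.06), and Mtmr2, a phosphoinositide phosphatase mutated in an inherited neuropathy, with 130 and 136 against 112 and 111 (log2 fold change 0.26, SE 0.05). Clec2l, a lectin-like membrane protein, had 221 and 215 CPM against 173 and 172 with vehicle and 221 and 199 in sham (log2 fold change 0.34, SE 0.06, DESeq2 adjusted p = 0.0116). Pot1b, a telomere-binding protein, had 7.96 and 13.7 CPM against 3.34 and 3.43 with vehicle and 7.58 and 12.7 in sham (log2 fold change 1.67, SE 0.34, DESeq2 adjusted p = 0.0126). In Clec2l and Pot1b it was vehicle that stood below both other groups.

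**Figure D5:**
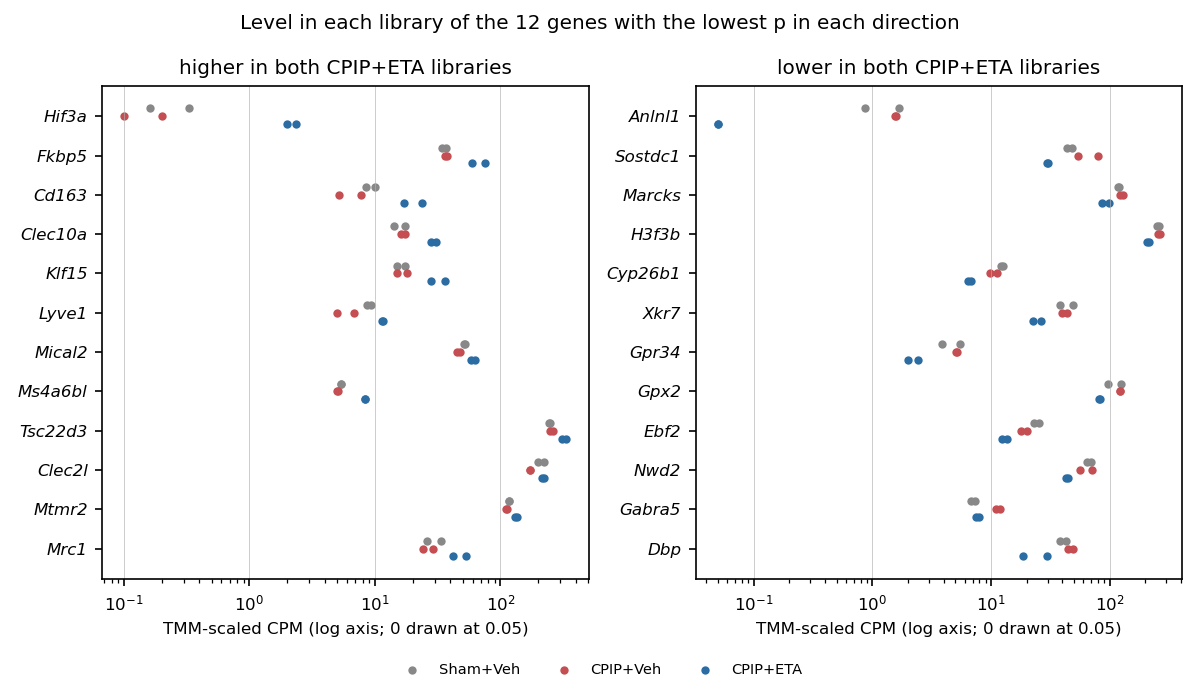
TMM-scaled CPM in each of the 6 libraries (points, log axis, coloured by group) for the 12 genes with the lowest edgeR p among those higher (left) and lower (right) in both CPIP+ETA libraries. The CPIP+ETA points lie clear of the CPIP+Veh points in every row, because the rule for these genes asked for it, and Anlnl1 at 0 is drawn at 0.05.

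The largest fold changes came from genes that were near 0 in one group, and whether their reads could also come from copies elsewhere in the genome was not tested. Anlnl1, an anillin-like gene, had 0 counts over both etanercept libraries and 62 with vehicle, which makes it at least 19.95-fold lower when 3 counts over the group stand in for 0. Mrpl1, a mitochondrial ribosomal protein gene, had 149 counts with etanercept and 0 with vehicle (at least 51.45-fold higher), and in sham it stood at 0 in one library and 5.42 CPM in the other. Its log2 fold change in the edgeR fit was 9.22 (SE 2.97, unadjusted p = 0.0228). Prrg3, a vitamin K-dependent membrane protein gene, had 2.27 and 0 CPM with etanercept, 33.9 and 12.6 with vehicle and 5.31 and 16.4 in sham. Crisp1, a secretory protein of the epididymis, had 3 counts against 56, a ratio of 18.02 (95% interval 5.86 to 90.0, counting error only). Wbp11l1, called by DESeq2, had 33.2 CPM in CPIP+ETA 2 and 32.4 in Sham+Veh 1 and 0 counts in the other 4 libraries, so its groups overlap. The 3 genes called by DESeq2 that have only provisional names were LOC686087, with 1.47 and 2.07 CPM in the vehicle libraries and 0 in the other 4, LOC100911166, with 1.26 and 1.25 CPM with etanercept and 0 with vehicle, and LOC685668, with 78.1 and 92.7 CPM against 50.5 and 58.6. The entry gene-Ccnj had 17 and 69 counts with etanercept, 0 in each vehicle library and 13 and 0 in sham (at least 29.7-fold higher against a floor of 3 counts over the vehicle group). A second entry, Ccnj, held 121 and 69 counts with etanercept against 152 and 152 with vehicle, and how reads were divided between the entries is not given in the sources used here, so the value of gene-Ccnj is uncertain. Fabp4, a fatty acid-binding protein of fat cells, had 0.302 and 1.74 CPM with etanercept, 0 and 0.202 with vehicle and 3.84 and 1.42 in sham, levels that rest on few reads.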

How the data were processed

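Bulk RNA-seq libraries of the lumbar ganglia were used, with 2 libraries in each of 3 groups. The values are expected counts deposited by the authors, 1 column per library. Of the non-blank values 32.75% are whole (within 1e-9), and they were rounded before use. Reads came from a BGISEQ-500, per the labels' protocols, although the same labels name Illumina library protocols. The build is Rnor 6.0, per the submitters' processing notes. The aligner, counter, annotation and strand setting were not given in the sources used here, so genes with near-identical or antisense partners are uncertain. After rounding, 3441 genes were at 0 in every library, the 2907 that were blank included. Of the 22864 identifiers 20690 matched RefSeq's table (GRCr8), used for names and promoters only.

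Genes were kept by edgeR's filterByExpr (minimum count 10, minimum total 15), scaled by TMM and fitted with edgeR 4.0.16 (quasi-likelihood, group only, all 6 libraries, 3 residual degrees of freedom) in R 4.3.3, with Benjamini-Hochberg adjustment over 15531 genes. DESeq2 1.42.0 and limma 3.58.1 (voom) were alternatives, with other scalings, other filters, a replicate block and each library left out. Total counts of 18285251 to 19981250 limit the precision of genes with few reads. The main test was checked on simulated counts for CPIP+ETA against CPIP+Veh with 15391 genes. There it recovered 50.75% of genes changed 1.5-fold, 88.06% of those changed 2-fold and 96.97% of those changed 4-fold. Of its 168 calls on these simulated counts, 11 were false. In the real libraries edgeR did not call Hif3a (ratio of etanercept to vehicle 13.8) or Fkbp5 (1.84), each at an adjusted p of 0.721. The simulated shares therefore do not tell how many real changes of these sizes the test would call, and such changes may have been missed.

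Named are the 12 genes with the lowest p and the 6 with the largest fold change in each direction (groups not overlapping, at least 1 CPM in the higher group, no provisional name, the latter at an unadjusted p under 0.05), each gene called by DESeq2, the 3 members with the lowest p in each list described (for some lists fewer are given), and Tnf, Lta, Ltb, Tnfrsf1a and Tnfrsf1b. The genes and the 48 lists were chosen with earlier results of these data known, and no test of a list was made.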

Additional observations from a re-analysis of the deposited data

How the results depend on the processing

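edgeR called 0 genes under every scaling, filter and library left out, and limma-voom called 0. DESeq2 called 21, with 407 at an unadjusted p under 0.05. The count at an unadjusted p under 0.05 ran from 594 (without CPIP+Veh 2) to 1383 (without CPIP+ETA 2). Leave-one-out fits of DESeq2, chosen after seeing the data, gave 14 (without CPIP+Veh 1) to 53 calls (without CPIP+ETA 2), and 32 without CPIP+Veh 2 and 32 without CPIP+ETA 1. Of the 21, those called again numbered 2 without CPIP+Veh 1, 7 without CPIP+Veh 2, 9 without CPIP+ETA 1, 7 without CPIP+ETA 2, 17 without Sham+Veh 1 and 17 without Sham+Veh 2. The split of 376 higher and 424 lower was 476 and 392 without CPIP+ETA 1, 562 and 821 without CPIP+ETA 2, and 326 and 464 under upper-quartile scaling. The cause was not tested.

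Deviations of same-numbered libraries correlated at 0.05 between CPIP+Veh and CPIP+ETA, and the labels do not say that the numbers pair animals. With the replicate number as a block edgeR called 0 genes over 6 libraries and 29 over the 4 compared, 13 of them shared with DESeq2.

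Signs of log2 fold changes turned for 10 named genes when 1 library was left out. The values ran from -0.13 to 0.026 for Gpr37l1, -1.30 to 0.21 for Ltb, -2.17 to 2.76 for Retnlg, -0.59 to 0.042 for Ugt8 and -0.35 to 3.02 for Pck1. They ran from -0.0094 to 0.17 for Sox10, -0.22 to 0.046 for Spp1, -3.36 to 0.37 for Myh1, -1.03 to 0.012 for RT1-Bb and -0.81 to 0.0026 for Ttn. Each of these had groups that overlapped. Genes of a few counts per library, such as Tnf and Lta, stayed below the filter, and without it their fold changes had wide errors (SE 0.72 and 1.78 on the log2 scale).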
